A study of Mus musculus with 15 samples.

Results

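The comparison described here is that of mutant-labelled with control ileum 3 months after tamoxifen, across all expressed genes other than the peptide hormones. It used 8 of the 15 libraries of the series, namely every library with the 3-month time label. Each library is the ileum RNA of 1 sample, given as read counts per gene. The protocol describes ribosomal depletion of total RNA, while the molecule label names polyA RNA, so which RNA was sequenced is uncertain. The 4 mutant-labelled libraries carry the genotype label Rfx6f/f Vilin-CreERT2, that is, loxP-flanked copies of Rfx6 on both chromosomes together with a tamoxifen-activated Cre recombinase driven by the Villin promoter, which is active in intestinal epithelium. Among the 4 controls, libraries 1 and 4 are Rfx6f/f and libraries 2 and 3 are Rfx6f/+, with 1 loxP-flanked copy. No Cre is named for the controls. All animals were adults and all received tamoxifen by gavage, per the labels' protocols, so the drug itself was common to both groups. The labels do not say that the libraries came from separate animals, so p-values measure the spread between these samples.

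Counts of the targeted gene were not lower in the mutant-labelled libraries. Rfx6, the transcription factor of enteroendocrine cells for which the alleles are named, was at 1.77, 1.597, 1.48 and 1.51 CPM (read counts scaled to the TMM-adjusted library total) in the controls. It was at 3.40, 2.38, 2.37 and 2.31 CPM in the mutant-labelled libraries. In the edgeR test used below it was called higher (log2 fold change 0.72, adjusted p = 0.0347). That call was lost in 6 of the 8 fits with 1 library left out. The read count covers the whole gene and cannot tell a recombined from an intact transcript. Every direction below is therefore that of the libraries labelled mutant. The tissue label was in place, since Vil1, the brush border protein villin, lay between 1630 and 2395 CPM and Slc10a2, the ileal bile acid transporter, between 199.8 and 604 CPM over all 8 libraries. Library totals ran from 26078462 to 36270306 counts. In bulk tissue, fewer cells of a type and less RNA per cell cannot be told apart.

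The ileum is the last stretch of the small intestine. Its enterocytes normally take up bile acids, while the proximal intestine is the main site of sugar and fat absorption and expresses more of the genes for both. Lymphocytes that live within the epithelium release interferon-gamma, which acts through transcription factors such as IRF1 to switch on immunity-related GTPases, antigen processing and checkpoint ligands in epithelial and immune cells. Enteroendocrine cells are a rare epithelial lineage whose products act on the whole organ.

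In edgeR's quasi-likelihood test, 1586 of 17085 tested genes, or 9.28%, were called at an adjusted p below 0.05. Of these, 848 (4.96%) were higher and 738 (4.32%) were lower in the mutant-labelled libraries. For 3287 genes (19.2%) the values of the 2 groups did not overlap. The median log2 fold change of all tested genes was 0.01, with quartiles of -0.16 and 0.20. These figures are the background for the lists that follow, which together hold 874 distinct genes, 820 of them tested. Scaling by the total without the 20 most counted genes moved the split to 894 higher and 487 lower. Leaving out control 1, 2 or 3 lowered the calls over all genes to 400, 412 and 391. Leaving out mutant-labelled library 1 or 3 lowered them to 856 and 768. Counts given below for the lists in these fits stand beside those totals. Only 36 genes passed when the controls were limited to the 2 Rfx6f/f libraries and 416 with the 2 Rfx6f/+ libraries. The 2 control genotypes themselves differed in 0 of 17780 genes by edgeR, with 1220 at an unadjusted p below 0.05.

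**Figure D1:**
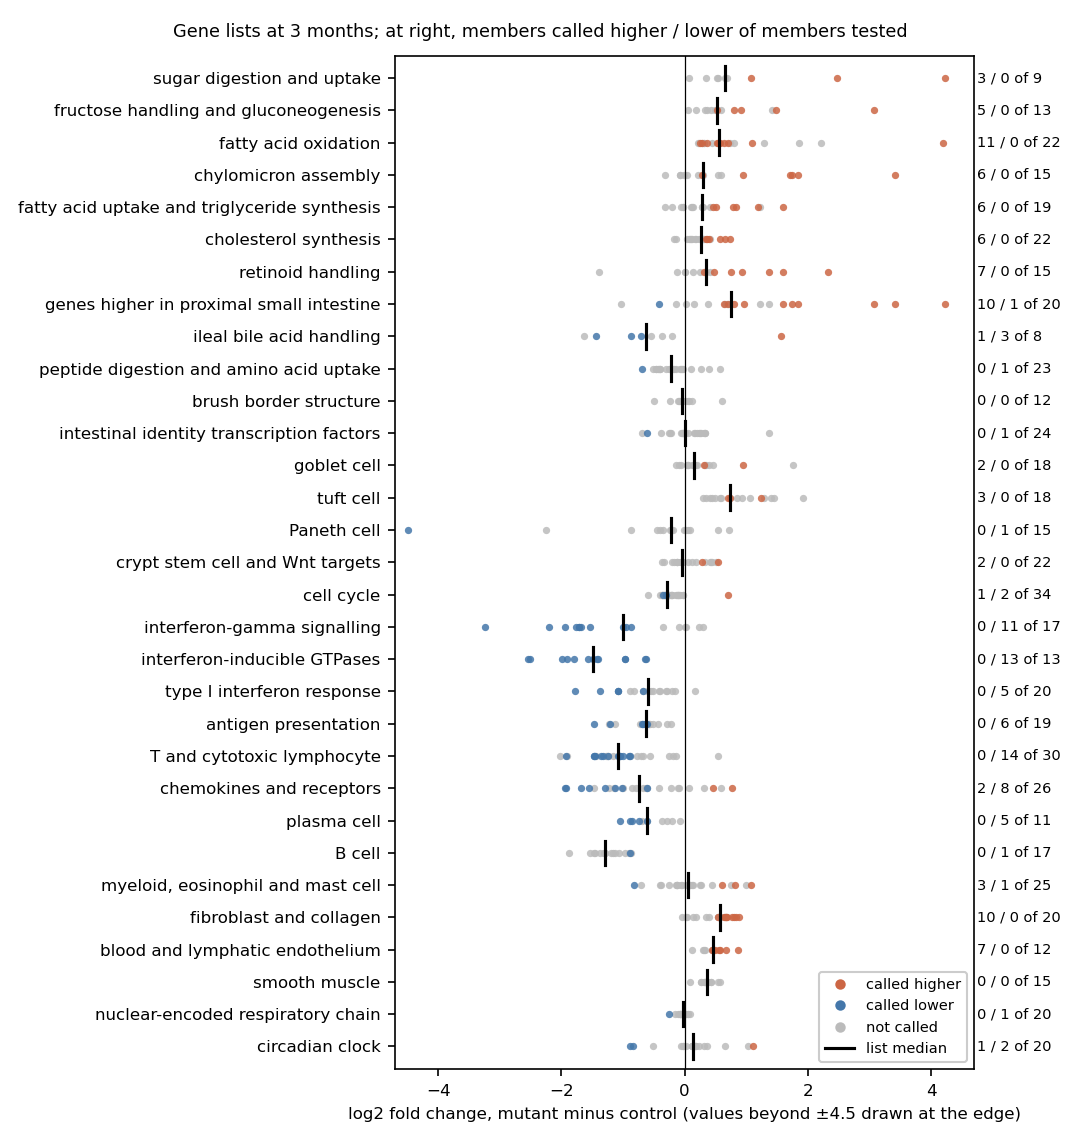
Log2 fold change (mutant-labelled minus control, x axis) of every tested member of 31 gene lists (y axis). Each point is a gene, coloured where called at an adjusted p below 0.05, and the black bar is the list's median. The medians of the sugar, fatty acid oxidation and proximal lists lie right of 0, those of the interferon and lymphocyte lists left of it, and those of the brush border and respiratory chain lists near it.

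The 15 largest rises held genes of several kinds. Dmp1, an acidic matrix protein best known from bone and dentin, was at 0.03, 0.22, 0.08 and 0.32 CPM in the controls and at 4.69, 2.34, 7.04 and 4.49 CPM in the mutant-labelled libraries. Its log2 fold change of 4.79 ± 0.52 (SE, n = 4 against 4, adjusted p = 0.00269) was the largest of the ranked rises, from a control level of a few reads per library. Slc2a2, the glucose transporter GLUT2, was at 4.23. Another 12 of the 15 were Apoa4 (3.42), Clec1b (3.11), Stxbp5l (3.10), Fbp1 (3.08), Enpp7 (2.84), Rab30 (2.61), Gpnmb (2.59), Cwh43 (2.55), Sis (2.47), Cyp2u1 (2.43), Mmp9 (2.34) and Rdh7 (2.33). Rab30, a Golgi GTPase, had the smallest adjusted p of these, 4.94e-05, with 5.98 to 7.09 CPM in the controls and 29.5 to 43.7 CPM in the mutant-labelled libraries. Enpp7, the alkaline sphingomyelinase that digests dietary sphingomyelin, was uneven, at 60.8, 243, 44.4 and 211 CPM in the mutant-labelled libraries against 13.9 to 24.7 CPM in the controls, and it was not called without control 1, 2 or 3. Gpnmb, a glycoprotein of macrophages and other cells with many lysosomes, reached 66.9 CPM in mutant-labelled library 3 and 18.6 to 32.8 CPM in libraries 1, 2 and 4.

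The 15 largest falls held interferon-inducible genes and several epithelial genes. Plet1, a surface glycoprotein of epithelial progenitors, was at 112, 176, 135 and 9.01 CPM in the controls and at 1.48, 2.87, 2.72 and 1.85 CPM in the mutant-labelled libraries. It fell by 5.59 ± 0.82 on the log2 scale (adjusted p = 0.00904), yet control library 4 lay far below the other controls. Meltf, the iron-binding melanotransferrin (-3.89), Krt84, a keratin (-2.88), and Abca13, a lipid transporter (-2.68), also had their lowest control value in library 4, as did Nlrp10 (-2.09). Upp1, the uridine phosphorylase that recycles pyrimidines, was at 606, 651, 737 and 614 CPM in the controls and at 90.4, 275, 42.9 and 76.0 CPM in the mutant-labelled libraries, a fall of 2.43 ± 0.50 (adjusted p = 0.0245). Pkhd1, the membrane protein fibrocystin, fell by 1.99, Ceacam10 by 2.097 and Akr1b7, an aldo-keto reductase, by 2.09. Pax6, a transcription factor of enteroendocrine cells, fell by 2.24. The remaining 5, Ifit1bl1, Tgtp1, Igtp, Socs1 and Irgm2, belong to the interferon response and are described with it. Several of the falls lost their call when 1 library was left out. Upp1, Ceacam10, Akr1b7, Nlrp10 and Irgm2 did so without control 1, 2 or 3. Upp1, Nlrp10 and Irgm2 also did without mutant-labelled library 1, Akr1b7 and Nlrp10 without mutant-labelled library 3 and Irgm2 without mutant-labelled library 4, while Igtp did only without control 3. Exons of Apoa4, Akr1b7 and Pkhd1 overlap a gene on the opposite strand, and those of Clec1b, Igtp, Irgm2 and Tgtp1 overlap another gene model on the same strand. The strand setting of the counting is not given in the sources used here, so their counts are uncertain.

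Of the 9 genes for sugar digestion and uptake, 3 rose and 0 fell, with a median log2 fold change of 0.66. Sis, the sucrase-isomaltase of the brush border, was at 2002, 1364, 1942 and 1999 CPM in the controls and at 13450, 9307, 9403 and 8392 CPM in the mutant-labelled libraries (2.47 ± 0.19, adjusted p = 0.000567). Its companion maltase-glucoamylase, Mgam, rose from 3074 to 3893 CPM to 5018 to 10830 CPM (1.08 ± 0.22, adjusted p = 0.0231). Slc2a2 was at 5.71, 3.38, 3.30 and 3.24 CPM in the controls and at 113, 44.0, 70.2 and 67.0 CPM in the mutant-labelled libraries (adjusted p = 0.000555). For none of these 3 did the groups overlap. The apical glucose carrier Slc5a1 (0.35, adjusted p = 0.16) and the fructose carrier Slc2a5 (0.68, adjusted p = 0.16) did not pass. Mgam was lost without control 1, 2 or 3, which left 2 called genes in each case.

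Among 13 tested genes of fructose handling and gluconeogenesis, 5 rose and 0 fell, with 13 positive fold changes and a median of 0.52. Mlxipl, which encodes the sugar-responsive transcription factor ChREBP, was at 47.7, 45.5, 46.6 and 58.6 CPM in the controls and at 148, 116, 131 and 161 CPM in the mutant-labelled libraries (1.49 ± 0.12, adjusted p = 0.000567). The 4 mutant-labelled values all lay well above the highest control. Fbp1, a fructose-bisphosphatase of gluconeogenesis, was at 7.76, 4.12, 4.78 and 10.5 CPM in the controls and at 97.4, 38.2, 53.6 and 40.2 CPM in the mutant-labelled libraries (adjusted p = 0.00613). Enzymes that take fructose into glycolysis rose less, with ketohexokinase Khk at 0.80 and the triokinase Tkfc at 0.91. G6pc, the glucose-6-phosphatase (1.42, adjusted p = 0.061), and Pck1 (0.59, adjusted p = 0.2) did not pass. Without control 3 the list had 3 calls.

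**Figure D2:**
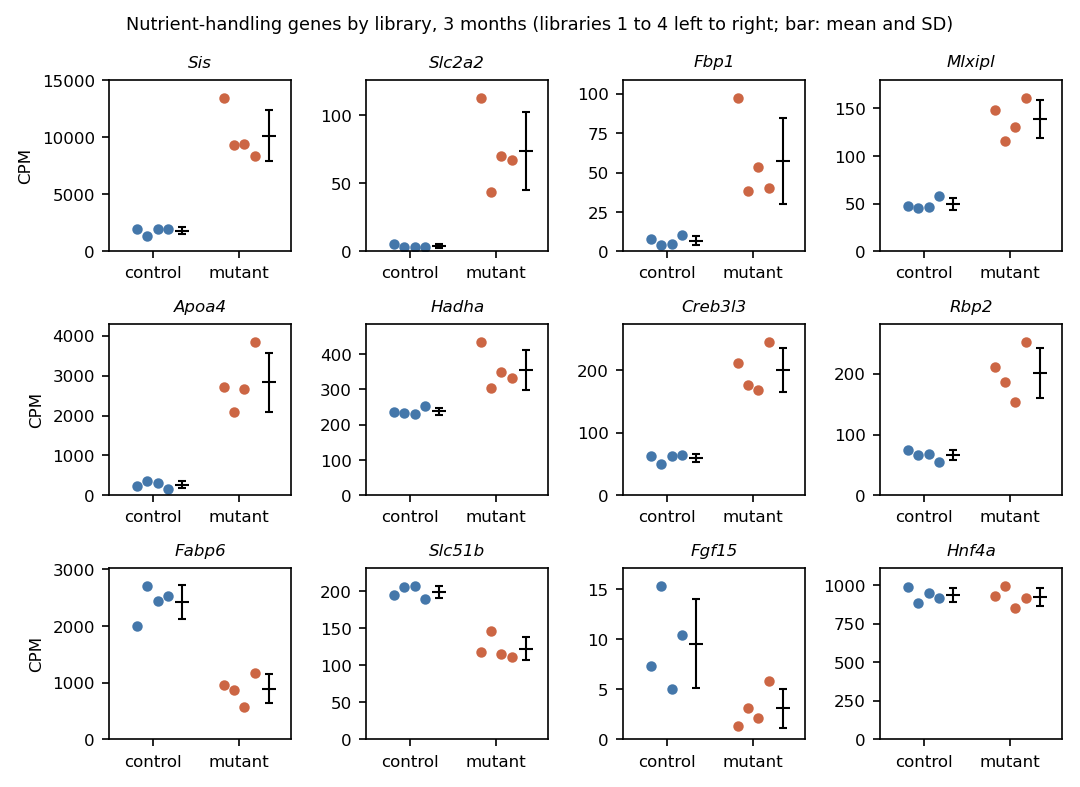
Level in CPM (y axis, linear from 0) of 12 nutrient-handling genes in control (blue) and mutant-labelled (orange) libraries at 3 months, drawn from library 1 on the left to library 4 on the right. The black bar is the mean with its SD. Sis, Slc2a2, Mlxipl and Apoa4 separate fully, and Hnf4a is level.

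Fat handling moved at oxidation, storage and export. All 22 tested genes of fatty acid oxidation had a positive fold change; 11 rose, 0 fell, and the median was 0.55. Called genes cover entry into mitochondria (Cpt1a, Slc25a20, Cpt2), the oxidation cycle itself (Acadvl, Hadha, Hadhb, Acaa2), electron transfer (Etfdh), the coactivator Ppargc1a and the uncoupling protein Ucp2. Hadha, a subunit of the mitochondrial trifunctional protein, was at 237, 233, 229 and 252 CPM in the controls and at 435, 305, 349 and 331 CPM in the mutant-labelled libraries (0.58 ± 0.10, adjusted p = 0.017). Its groups did not overlap, and mutant-labelled library 1 was the highest. Mutant-labelled library 1 was also the highest for Pdk4, the kinase that shuts off pyruvate oxidation, at 50.0 CPM against 7.37 to 18.3 CPM in libraries 2 to 4 and 2.02 to 7.25 CPM in the controls (2.22, adjusted p = 0.0622). Without control 1, 2 or 3, where calls over all genes also dropped, 1 gene of the list passed. Without mutant-labelled library 3, 6 genes passed. The median stayed between 0.42 and 0.63 over the 8 sets of 7 libraries.

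Of 15 chylomicron genes, 6 rose and 0 fell (median 0.30), and of 19 genes for fatty acid uptake and triglyceride synthesis also 6 rose and 0 fell (median 0.28). Creb3l3, a transcription factor of apolipoprotein genes, was at 63.6, 49.9, 62.6 and 63.9 CPM in the controls and at 211, 176, 168 and 245 CPM in the mutant-labelled libraries (1.74 ± 0.13, adjusted p = 0.000555). Apolipoproteins Apoa4 (3.42), Apoc3 (1.84) and Apoc2 (1.71) rose, while Apob (0.54, adjusted p = 0.075), Apoa1 (0.58, adjusted p = 0.097) and the transfer protein Mttp (0.30, adjusted p = 0.14) did not pass. The acyltransferase Dgat2 (0.94) rose as well. In uptake and storage, the lipid droplet proteins Cidec (1.59) and Plin2 (0.78), the fatty acid ligase Acsl3 (1.19) and the lipase Mgll (0.83) rose. Cidec is also an adipocyte gene, and it was the only one called of 8 adipocyte genes, whose summed level was 61.5 to 217 CPM in the controls and 152 to 239 CPM in the mutant-labelled libraries. Without control 1 or 3 the chylomicron count was 4. Without control 3 the uptake count was 3.

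Sterol genes were read as 2 lists. Cholesterol synthesis had 6 rises and 0 falls among 22 tested genes (median 0.26), led by Cyp51, the lanosterol demethylase, at 187 to 273 CPM in the controls and 335 to 413 CPM in the mutant-labelled libraries (0.74 ± 0.12, adjusted p = 0.0115). This count was 1 without control 2, 3 or 4 or without mutant-labelled library 1, 2 without mutant-labelled library 3 or 4, and 4 without mutant-labelled library 2. Of 11 genes for sterol uptake and efflux, the cholesterol importer Npc1l1 (0.63) and the lipoprotein receptor Scarb1 (0.62) rose and the exporter Abca1 fell by 0.47. Without control 2 or 3 there were 0 rises, and without control 1 there was 1.

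Retinoid and drug-metabolising genes also rose in part. Of 15 retinoid genes, 7 rose and 0 fell (median 0.34). Rbp2, the enterocyte retinol-binding protein, was at 74.95, 65.9, 68.8 and 55.4 CPM in the controls and at 212, 186, 154 and 252 CPM in the mutant-labelled libraries (1.601 ± 0.15, adjusted p = 0.00164). Rdh7, a retinol dehydrogenase, rose by 2.33, the carotene-cleaving Bco1 by 0.93 and Cyp26b1, which degrades retinoic acid, by 1.37. The retinoid count was 2 without control 1, 2 or 3 and 3 without mutant-labelled library 3. Of 24 cytochrome P450 genes and regulators, 5 rose and 0 fell. They were Cyp2u1, Cyp2j6 (1.16), Cyp1b1 (0.80), the aryl hydrocarbon receptor target Cyp1a1 (2.22) and the electron donor Por. Cyp1a1 was not called without control 1, 2 or 3 or mutant-labelled library 1 or 3, nor with either control genotype alone (adjusted p = 0.219 and 0.0782). Por was at 53.3, 50.5, 52.6 and 61.0 CPM in the controls and at 135, 99.0, 120 and 145 CPM in the mutant-labelled libraries (1.20 ± 0.12, adjusted p = 0.00185), without overlap. Among 23 conjugating enzymes 1 rose and 2 fell. Without control 1 or 2 none of them was called. Without control 4 or mutant-labelled library 2 or 4 there were 0 falls, without mutant-labelled library 3 there was 1, and without control 3 or mutant-labelled library 1 there were 0 rises.

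Genes that are normally higher in the proximal small intestine were read as a further list. Of 20 tested, 10 rose and 1 fell, the iron carrier Slc11a2 (-0.42), with a median of 0.75. Of the 10, Slc2a2, Fbp1, Apoa4, Apoc3, Creb3l3, Rbp2, Npc1l1 and Khk belong to the lists above as well. The proton-coupled folate carrier Slc46a1 was at 8.42 to 13.3 CPM in the controls and 15.5 to 23.6 CPM in the mutant-labelled libraries (0.96 ± 0.19, adjusted p = 0.0215). Slc40a1, the iron exporter ferroportin, rose by 0.70. Fabp1 (1.22, adjusted p = 0.081), Lct (0.66, adjusted p = 0.32) and the proximal transcription factor Gata4 (1.37, adjusted p = 0.088) did not pass. Gata4 was at 1.63 to 3.65 CPM in the controls and at 3.15, 7.10, 4.11 and 13.0 CPM in the mutant-labelled libraries, so the groups overlapped. The count of rises was 6 without control 3. Slc11a2 kept its call only without mutant-labelled library 2 among the 8 sets of 7 libraries.

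Ileal genes were read as 2 lists that share members. Of 11 genes normally higher in the distal ileum 2 fell, Fabp6 and Slc51b, and 0 rose, with 5 positive and 6 negative fold changes and a median of -0.21. Of 8 tested genes of ileal bile acid handling 3 fell and 1 rose, with a median of -0.63. Fabp6, the ileal bile acid-binding protein, was at 2006, 2708, 2440 and 2536 CPM in the controls and at 960, 871, 572 and 1179 CPM in the mutant-labelled libraries, a fall of 1.44 ± 0.20 (adjusted p = 0.00873). Slc51b, a subunit of the basolateral bile acid exporter, was at 195, 205, 208 and 190 CPM in the controls and at 118, 146, 115 and 112 CPM in the mutant-labelled libraries (-0.70 ± 0.09, adjusted p = 0.00613). Neither gene's groups overlapped, though exons of Slc51b overlap a gene on the opposite strand. The exporter Abcc3 fell by 0.87, while the apical exporter Abcc2 rose by 1.57. Fgf15, the ileal signal that restrains bile acid synthesis in the liver, was at 7.34, 15.3, 5.05 and 10.4 CPM in the controls and at 1.35, 3.10, 2.16 and 5.803 CPM in the mutant-labelled libraries (-1.63 ± 0.47, adjusted p = 0.0584), which did not pass. Leaving out control 1, 2 or 3 gave 2 falls.

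General enterocyte genes were read as further lists. Of 24 intestinal transcription factors, 1 fell and 0 rose, with a median of 0.01, close to that of all genes. The one called, Prdm1, is also a plasma cell gene, and it was called only without mutant-labelled library 1 or 2 among the 8 sets of 7 libraries. Hnf4a, the master regulator of enterocyte genes, was at 884 to 990 CPM in the controls and 855 to 996 CPM in the mutant-labelled libraries (-0.02 ± 0.07, adjusted p = 0.888). None of 12 brush border structure genes was called, and their median was -0.04. Of 23 genes for peptide digestion and amino acid uptake, 1 fell, the protease meprin Mep1b (-0.69, adjusted p = 0.0474), and 4 had a positive fold change. Mep1b was still called without mutant-labelled library 2, but not without any of the other 7. Of 9 villus tip genes 3 rose and 0 fell, namely Apoa4, Creb3l3 and Nt5e, the ectonucleotidase CD73. Nt5e was at 36.0, 30.4, 45.4 and 45.7 CPM in the controls and at 165, 92.4, 168 and 254 CPM in the mutant-labelled libraries (2.11 ± 0.28, adjusted p = 0.00697). Of 21 ion transport genes 3 rose, among them the sodium-proton exchanger Slc9a3 (1.43) and uroguanylin, Guca2b (0.92). Without control 3 the list had 1 rise.

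The interferon-gamma programme was lower in the mutant-labelled libraries. Of 17 tested genes of the pathway 11 fell and 0 rose, with a median of -1.005, and all 13 tested interferon-inducible GTPases fell, with a median of -1.49. For 13 of these 13 GTPases the groups did not overlap. The ligand Ifng itself was near the limit of counting, at 0.63, 1.505, 1.13 and 1.09 CPM in the controls and at 0.13, 0.10, 0 and 0.25 CPM in the mutant-labelled libraries (-3.24 ± 0.57, adjusted p = 0.0159). A library with 3 counts would lie at 0.08 to 0.12 CPM. The receptor chains Ifngr1 (0.02, adjusted p = 0.92) and Ifngr2 (0.29, adjusted p = 0.1) and the kinase Jak2 (0.23, adjusted p = 0.055) did not pass.

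Falls were also called downstream of the receptor. Socs1, the feedback inhibitor of the kinases, was at 12.3, 17.9, 14.1 and 11.2 CPM in the controls and at 2.47, 4.49, 2.69 and 2.46 CPM in the mutant-labelled libraries (-2.20 ± 0.23, adjusted p = 0.00269). Cd274, the checkpoint ligand PD-L1, was at 29.3, 42.7, 37.1 and 35.7 CPM in the controls and at 9.38, 12.3, 11.9 and 10.2 CPM in the mutant-labelled libraries (-1.72 ± 0.13, adjusted p = 0.000555). The groups were apart for both genes, and mutant-labelled library 2 was the highest of its group each time. Irf1 (-1.005), Irf8 (-0.88), the MHC class II activator Ciita (-0.95), its class I counterpart Nlrc5 (-1.76) and the tryptophan-degrading Ido1 (-1.71) also fell.

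The GTPases that act in defence against intracellular microbes fell in both families. In the IRG family, Igtp was at 90.6, 164, 160 and 113 CPM in the controls and at 12.8, 48.7, 12.1 and 19.2 CPM in the mutant-labelled libraries (-2.51 ± 0.45, adjusted p = 0.0166). Irgm1, a regulatory member, was at 89.2, 128, 112 and 93.0 CPM in the controls and at 36.0, 48.9, 30.7 and 41.1 CPM in the mutant-labelled libraries (-1.43 ± 0.16, adjusted p = 0.00341). Irgm2 fell by 1.98, Iigp1 by 1.91, Ifi47 by 1.49, Tgtp1 by 2.55 and its near-identical neighbour Tgtp2 by 1.80. In the guanylate-binding family, Gbp2 fell by 1.57, Gbp8 by 1.41, Gbp7 by 0.97, Gbp4 by 0.97, Gbp9 by 0.65 and Gbp3 by 0.62. Reads of these related genes may have been shared or set aside in counting. Without single libraries the GTPase count was 8 to 13, lowest without control 3, and the interferon-gamma count 8 to 12. With only the Rfx6f/f controls 2 GTPases and 1 interferon-gamma gene were called, at medians of -1.31 and -0.98, and with only the Rfx6f/+ controls 10 and 6, at -1.63 and -1.04.

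Promoters of 8 gene sets were read for 5 motifs, and some promoters of genes that fell are printed. The printed ones were picked by hand and only those with a match were kept, so what they share follows partly from that choice. The GTPases were listed as interferon-inducible and are related genes, so their shares below are not independent. Sequences are from RefSeq on GRCm38.p6, where 9 of the 13 GTPases had an entry, each covering 250 bases before and 50 after the start. The STAT letters TTCNNNGAA, on either strand, stood in 5 of the 9 (55.6%) and the IRF letters GAAANNGAA in 8 of the 9 (88.9%), against 8.43% and 8.94% of the 11897 tested genes with an entry. The 2 patterns can share the letters GAA. In the wider interferon-gamma list each was found in 4 of 12 genes, and in the antigen presentation list each in 2 of 15 (13.3%). In the fatty acid oxidation list the STAT letters were in 3 of 17 (17.6%). For the 15 named rises, 11 with an entry, neither was found. For the 15 named falls, 14 with an entry, the STAT letters were in 3 (21.4%) and the IRF letters in 5 (35.7%). The RFX letters GTTGCCA were in 0 of the 11 named rises, in 0 of 14 named falls and in none of the GTPase and interferon-gamma genes. They were in 3 of 8 sugar genes (37.5%), 3 of 16 proximal genes (18.8%), 2 of 15 antigen presentation genes (13.3%) and 2 of 17 fatty acid oxidation genes (11.8%), against 4.48% of all. Among the named genes, the GATA letters AGATAAG were in 1 of the rises and 1 of the falls (2.62% of all) and the HNF4 letters CAAAGTCCA in 1 of the rises and 0 of the falls (0.588% of all), each on either strand. Igtp, Irgm2 and Tgtp1, all on chromosome 11, carried the STAT letters first and the IRF letters after a gap of 2 bases, as the capitals show. Each stretch but that of Gbp7 holds the 120 bases before the start, and all read 5′ to 3′ in the gene's direction.
Igtp, chr11:58199436-58199555, plus strand: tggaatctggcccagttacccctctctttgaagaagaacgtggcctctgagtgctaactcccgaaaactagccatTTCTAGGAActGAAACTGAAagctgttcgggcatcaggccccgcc
Irgm2, chr11:58214857-58214976, plus strand: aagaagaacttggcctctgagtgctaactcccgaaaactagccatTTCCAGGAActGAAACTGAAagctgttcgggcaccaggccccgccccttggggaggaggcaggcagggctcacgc
Tgtp1, chr11:48992247-48992366, minus strand: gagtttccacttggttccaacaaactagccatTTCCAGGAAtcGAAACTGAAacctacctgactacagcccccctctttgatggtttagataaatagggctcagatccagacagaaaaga
Gbp7, on chromosome 3, held 2 STAT matches and, further on, an IRF match on the other strand, without the 2-base gap.
Gbp7, chr3:142530210-142530329, plus strand, from 126 to 7 bases before the start: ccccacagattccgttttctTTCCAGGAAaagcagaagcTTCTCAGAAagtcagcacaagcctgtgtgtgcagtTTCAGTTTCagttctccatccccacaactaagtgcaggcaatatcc
In the next 3, Irgm1 and Socs1 held 2 overlapping IRF matches and no STAT match, and Irf1, the transcription factor, held a STAT match alone.
Irgm1, chr11:48871421-48871540, minus strand: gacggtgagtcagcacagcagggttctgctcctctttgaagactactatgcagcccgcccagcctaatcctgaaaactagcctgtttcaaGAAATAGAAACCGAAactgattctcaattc
Socs1, chr16:10785537-10785656, minus strand: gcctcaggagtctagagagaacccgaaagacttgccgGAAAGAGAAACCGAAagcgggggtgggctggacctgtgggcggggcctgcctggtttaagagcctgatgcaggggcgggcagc
Irf1, chr11:53769894-53770013, plus strand: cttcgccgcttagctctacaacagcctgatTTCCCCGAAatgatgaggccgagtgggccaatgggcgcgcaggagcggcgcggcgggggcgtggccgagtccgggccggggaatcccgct
A match of letters is a description of the sequence and no evidence of binding in this tissue.

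Of 20 type I interferon response genes, 5 fell and 0 rose (median -0.60): Rsad2 (-1.38), Zbp1 (-1.79), Ifit2 (-0.68), Ifit1 (-1.08) and Oas3 (-1.08). The related Ifit1bl1, not in that list, also fell, at 450, 384, 404 and 394 CPM in the controls and at 46.0, 152, 37.6 and 33.5 CPM in the mutant-labelled libraries (-2.60 ± 0.47, adjusted p = 0.0166). Isg15 (-0.83, adjusted p = 0.11) and Mx1 (-0.29, adjusted p = 0.32) did not pass. All 19 tested antigen presentation genes had a negative fold change, 6 were called and the median was -0.63. Tap1, a subunit of the peptide transporter for MHC class I, was at 195, 208, 205 and 201 CPM in the controls and at 54.0, 117, 43.5 and 75.9 CPM in the mutant-labelled libraries (-1.48 ± 0.26, adjusted p = 0.0165). Tap2 (-0.70), the immunoproteasome subunits Psmb8 (-1.21) and Psmb10 (-0.63), Tapbpl (-0.62) and H2-D1 (-0.67) made up the rest, and the class II chain Cd74 (-0.58, adjusted p = 0.0973) did not pass. Mutant-labelled library 2 was the closest to the controls for each of the 6 called genes. Without it, 16 antigen presentation and 9 type I genes were called. Without control 1, 2 or 3 or mutant-labelled library 1 or 3, 1 of each was called. Without control 4 or mutant-labelled library 4, 2 and 3 of the antigen presentation genes were. With either control genotype alone 0 genes of both lists were called, while DESeq2 on all 8 libraries called 16 antigen presentation and 14 type I genes lower.

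**Figure D3:**
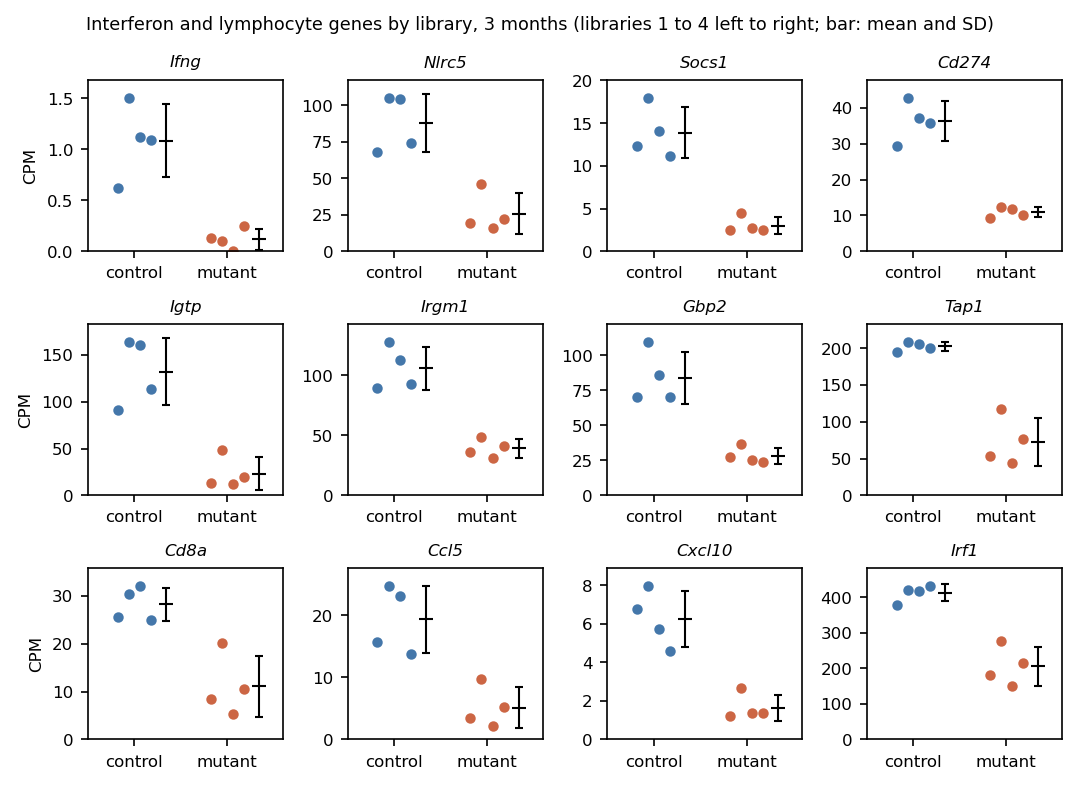
Level in CPM (y axis, linear from 0) of 12 interferon and lymphocyte genes in control (blue) and mutant-labelled (orange) libraries at 3 months, from library 1 on the left to library 4 on the right, with the mean and SD in black. The groups are apart in each panel, and the second orange point, mutant-labelled library 2, is the highest of its group in every panel but that of Ifng.

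Genes of T cells and cytotoxic lymphocytes were lower as well. Of 30 tested, 14 fell and 0 rose, the median was -1.07 and 21 did not overlap between groups. The following 2 genes were chosen after their values were seen. Cd8a, a chain of the CD8 co-receptor, was at 25.6, 30.3, 32.1 and 24.96 CPM in the controls and at 8.41, 20.1, 5.30 and 10.5 CPM in the mutant-labelled libraries (-1.35 ± 0.34, adjusted p = 0.0426). Itgae, the integrin that holds lymphocytes in the epithelium, was at 43.8, 53.7, 61.1 and 49.2 CPM in the controls and at 19.98, 43.7, 21.2 and 27.5 CPM in the mutant-labelled libraries (-0.89 ± 0.24, adjusted p = 0.0484). The T cell receptor subunits Cd3d (-1.06), Cd3g (-1.24) and Cd247 (-1.09), the kinases Lck (-1.05) and Zap70 (-0.995), the T-bet gene Tbx21 (-0.91), the granule protein Nkg7 (-1.47) and the checkpoint receptors Ctla4 (-1.06) and Pdcd1 (-1.48) also fell.

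Not every lymphocyte gene was called, though 29 of the 30 had a negative fold change. Cd4, the helper cell co-receptor, was at 14.4 to 18.2 CPM in the controls and 13.0 to 15.4 CPM in the mutant-labelled libraries (-0.13, adjusted p = 0.386), with overlapping groups. Gzma, a granzyme, had the largest fall of the list and groups that did not overlap, yet it did not pass. It was at 110, 142, 142 and 84.2 CPM in the controls and at 12.2, 64.3, 9.84 and 31.8 CPM in the mutant-labelled libraries (-2.02 ± 0.54, adjusted p = 0.0507). The lymphocyte count depended on the libraries: it was 22 without mutant-labelled library 2, and 0, 0 and 1 without control 2, 3 or 1. It was 1, 4 and 5 without mutant-labelled library 1, 3 or 4, and 8 without control 4. The median kept between -1.27 and -0.95 in these settings. DESeq2 called 24 of the 30 lower, while edgeR called 0 with only the Rfx6f/f controls and 2 with only the Rfx6f/+ controls. The part of lymphocyte content in the interferon values was not tested.

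Chemokines followed in part. Of 26 chemokine and receptor genes 8 fell and 2 rose, with a median of -0.74. Cxcl10, an interferon-induced attractant of T cells, was at 6.75, 7.96, 5.71 and 4.58 CPM in the controls and at 1.19, 2.64, 1.36 and 1.35 CPM in the mutant-labelled libraries (-1.94 ± 0.28, adjusted p = 0.00878). Ccl5, made by cytotoxic cells, fell by 1.92, Cxcl9 by 1.69, Ccl2 by 1.56, Ccl22 by 1.13 and the receptors Cxcr6 and Ccr2 by 1.01 and 0.62. The stromal chemokines Cxcl12 (0.46) and Cxcl14 (0.77) rose, but Cxcl12 was not called without control 1, 2 or 3, and neither was without mutant-labelled libraries 2 and 3 together. The count of falls was 2 without control 1, 2 or 3, 3 without mutant-labelled library 1, 4 without mutant-labelled library 3 and 5 without mutant-labelled library 4.

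Plasma cell genes fell in 5 of 11 cases with a median of -0.62. Jchain, which joins secreted IgA, was at 2047, 2203, 2895 and 2169 CPM in the controls and at 1082, 1645, 1181 and 1249 CPM in the mutant-labelled libraries (-0.85 ± 0.16, adjusted p = 0.0182). Mzb1, an endoplasmic reticulum protein of antibody-secreting cells, fell by 1.05. The share of counts in immunoglobulin segments was 0.23 to 0.35% in the controls and 0.12 to 0.18% in the mutant-labelled libraries. B cell genes had the lowest median of the immune lists after the GTPases, -1.29, but 1 of 17 was called. The summed level of the 17 genes was 205.5, 449, 261 and 304 CPM in the controls and 156, 61.0, 54.3 and 280 CPM in the mutant-labelled libraries. Mutant-labelled libraries 2 and 3 were the lowest, and library 4 lay among the controls. Without control 3, 0 B cell genes were called, and without mutant-labelled library 4, 5. Leaving out both low libraries together, an alternative added after seeing the data, gave 0 B cell and 5 plasma cell calls, and 15 lymphocyte and 12 GTPase calls. The B cell median was then -0.52, against -1.12 for T and cytotoxic lymphocytes. Without mutant-labelled library 3 alone these medians were -0.92 and -0.95, so the rank of the B cell median was not kept. Without mutant-labelled library 4 the B cell median was -2.03. The plasma cell count was 2 without control 3, and 3 without control 1 or 2 or mutant-labelled library 3 or 4. Myeloid genes were mixed: of 25, 3 rose (Csf1r, Clec7a, Clec9a) and 1 fell, the integrin Itgam (-0.82). Myeloid rises numbered 1 without control 2 or 3, and Itgam was not called without control 1, 2 or 3.

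**Figure D4:**
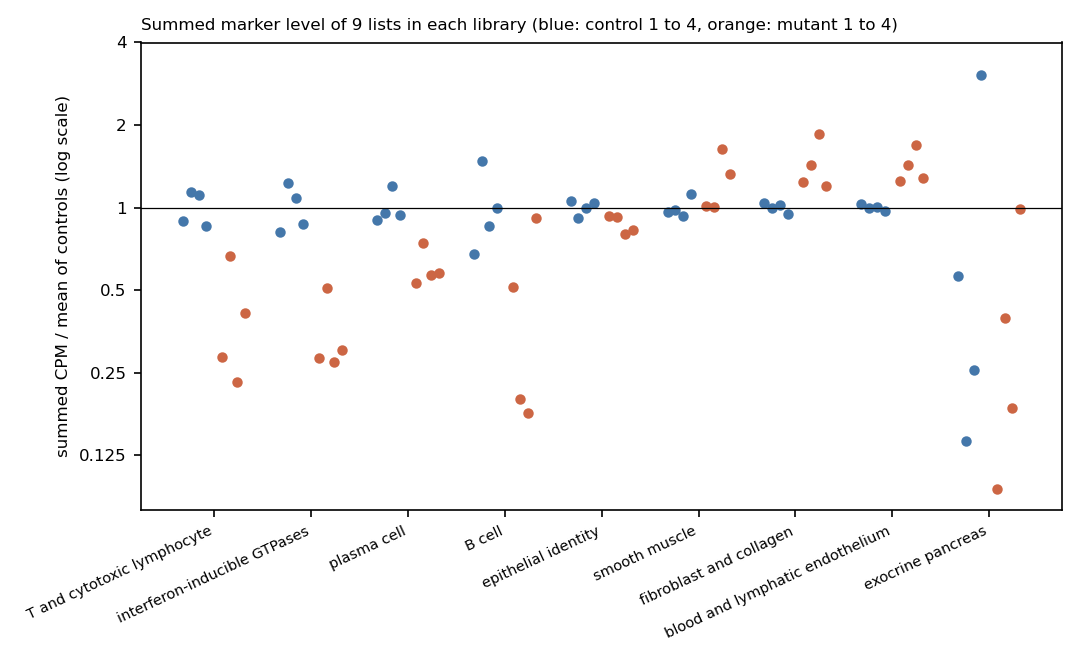
Summed CPM of 9 marker lists in each library, divided by the mean of the 4 controls (y axis, log scale), with controls in blue and mutant-labelled libraries in orange, each from 1 to 4. T cell and GTPase sums lie below the controls in all 4 mutant-labelled libraries, the B cell sum lies below every control in libraries 1 to 3 but not in library 4, and fibroblast and endothelial sums lie above the controls. Exocrine pancreas genes vary from library to library in both groups.

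For the other epithelial lineages, the share called over all tested genes, 9.28%, is the background. Of 18 goblet cell genes 2 rose, the mucin Muc2 (0.95) and Sytl2 (0.31), and the lineage's transcription factor Spdef (-0.10, adjusted p = 0.6) did not pass. Without control 1, 2 or 3 or mutant-labelled library 3 1 goblet cell gene was called. All 18 tested tuft cell genes had a positive fold change (median 0.73) and 3 rose: Ptgs1, the cyclooxygenase COX-1, Alox5 (1.24) and Ltc4s (0.73), which all act in the synthesis of prostaglandins or leukotrienes. Ptgs1 was at 38.9, 41.3, 45.2 and 39.1 CPM in the controls and at 64.4, 65.0, 82.0 and 56.2 CPM in the mutant-labelled libraries (0.70 ± 0.11, adjusted p = 0.0109). The lineage's defining genes were uneven: Dclk1 was at 8.04 to 17.1 CPM in the controls and at 10.3, 8.09, 22.3 and 23.6 CPM in the mutant-labelled libraries (adjusted p = 0.35), and Pou2f3 was at or below 2.28 CPM in all libraries (adjusted p = 0.386). These 3 enzymes are also made by other cells, and that part was not tested. Leaving out any control or mutant-labelled library 3 or 4 gave 1 call, and leaving out mutant-labelled library 1 gave 2.

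Of 15 Paneth cell genes the only call, Defa21, was at 441 and 518 CPM in controls 1 and 3 and at 0, 0.60 and at most 0.51 CPM in control 2, control 4 and the mutant-labelled libraries, so the groups overlapped. It was called only without control 2 or 4 among the 8 sets of 7 libraries. Lyz1, the Paneth cell lysozyme, was at 3763 to 6584 CPM in the controls and 3643 to 5315 CPM in the mutant-labelled libraries (-0.23, adjusted p = 0.473). In the antimicrobial and injury list Reg4 rose, at 36.6, 26.1, 31.7 and 70.1 CPM in the controls and 132, 87.4, 211 and 168 CPM in the mutant-labelled libraries (1.86 ± 0.35, adjusted p = 0.0192). Saa3 fell by 1.30. Without control 1, 2 or 3 neither was called, without mutant-labelled library 1 or 3 Saa3 was not, and without control 4 the list had 4 falls. Nos2, the inducible nitric oxide synthase, was at 362 to 487 CPM in the controls and at 75.4, 286, 68.1 and 15.1 CPM in the mutant-labelled libraries; the groups did not overlap, but the test did not pass (-1.94 ± 0.69, adjusted p = 0.104).

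Stem cell and proliferation lists were read in edgeR, which called 9.28% of all tested genes. Of 22 crypt and Wnt target genes 2 rose, Rnf43 (0.29) and Sox9 (0.55), and Lgr5, the stem cell receptor, was at 22.6 to 26.6 CPM in the controls and 23.5 to 28.8 CPM in the mutant-labelled libraries (0.06 ± 0.09, adjusted p = 0.705). Without control 1, 2 or 3 neither rise was called. Of 34 cell cycle genes 33 had a negative fold change, with a median of -0.28, but only Top2a (-0.34) and Mcm6 (-0.30) fell and the cyclin Ccne2 (0.70) rose. DESeq2 called 15 of the 34 lower and limma 5. Mki67 was at -0.02 (adjusted p = 0.89). Ccne2 was not called without control 1, 2 or 3 or mutant-labelled library 1. The cell cycle count of falls was 0 without control 1, 2 or 3 or mutant-labelled library 1 or 3, 7 without control 4 and 8 without mutant-labelled library 4.

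Beyond the peptide hormones, endocrine genes moved in both directions. Isl1, a transcription factor of hormone-producing cells, was at 1.39, 1.505, 1.90 and 1.58 CPM in the controls and at 0.10, 0.10, 0.13 and 0.28 CPM in the mutant-labelled libraries (-3.37 ± 0.31, adjusted p = 0.00138). Pax6 was at 2.05, 1.23, 1.48 and 1.76 CPM in the controls and at 0.29, 0.33, 0.51 and 0.21 CPM in the mutant-labelled libraries (adjusted p = 0.00606). Neither overlapped between groups. Both fell while Lmx1a (1.80), of serotonin-producing cells, Pax4 (1.94), St18 (0.64) and Nkx2-2 (1.15) rose. In the secretory machinery, Stxbp5l, a tomosyn that restrains vesicle fusion, was at 2.99, 1.87, 1.79 and 2.39 CPM in the controls and at 18.9, 16.7, 18.5 and 23.7 CPM in the mutant-labelled libraries (3.10 ± 0.19, adjusted p = 0.000102). Snap25 (0.70), Unc13a (0.71) and Rab3c (0.80) rose, and Scgn (-0.71), the potassium channel subunit Abcc8 (-0.80) and Baiap3 (-1.21) fell. Rises among the transcription factors, 5 with Rfx6 included, numbered 1 without control 3, 2 without control 1 or 2 or mutant-labelled library 3, and 3 without control 4 or mutant-labelled library 1. Falls in the secretory list numbered 0 without control 1 or 3 and 1 without control 2 or mutant-labelled library 3.

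Rises in the stroma were found in fibroblast and endothelial lists. Of 20 fibroblast and collagen genes 10 rose and 0 fell, with a median of 0.57. Col6a3, a chain of the microfibrillar collagen VI, was at 174, 167, 185 and 154 CPM in the controls and at 262, 344, 409 and 243 CPM in the mutant-labelled libraries (0.89 ± 0.16, adjusted p = 0.0159). The other collagen VI chains Col6a1 (0.67) and Col6a2 (0.80), the basement membrane chains Col4a1 (0.66) and Col4a2 (0.68), Col14a1 (0.78), Col15a1 (0.68), fibronectin Fn1 (0.83) and the receptors Pdgfra (0.64) and Pdgfrb (0.54) rose too. The fibrillar Col3a1 (0.35, adjusted p = 0.18) and Col1a1 (0.60, adjusted p = 0.054) did not pass. Leaving out control 1, 2 or 3 gave 4, 3 and 6 calls, respectively.

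Of 12 endothelial genes 7 rose and 0 fell (median 0.46). Vwf, the von Willebrand factor of blood vessels, was at 36.0, 33.9, 40.1 and 32.8 CPM in the controls and at 59.0, 63.4, 81.2 and 56.0 CPM in the mutant-labelled libraries (0.86 ± 0.12, adjusted p = 0.00836). The vascular receptors Flt1 (0.67), Kdr (0.58), Flt4 (0.45) and Tie1 (0.47), and Cdh5 (0.49) and Emcn (0.56), rose as well. This count was 1 without control 1 or 3, 2 without control 2 and 3 without mutant-labelled library 3. It was 0 with either control genotype alone and 2 without mutant-labelled libraries 2 and 3 together. Mutant-labelled library 3 was the highest for most stromal genes. Beside these rises, none of 15 smooth muscle genes was called, though all 15 fold changes were positive (median 0.36), with a summed level of 3029 to 3640 CPM in the controls and 3252 to 5307 CPM in the mutant-labelled libraries. Epithelial identity genes had 0 calls of 10 and a median of -0.18. The part of tissue composition in the stromal values was not tested. Exocrine pancreas genes ran from 78.6 to 1704 CPM in sum in the controls and from 52.7 to 551 CPM in the mutant-labelled libraries, with 0 calls of 9.

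Housekeeping programmes were read beside the 9.28% of all tested genes that were called. Of 20 nuclear genes of the respiratory chain 1 fell, cytochrome c, Cycs (-0.25), with a median of -0.02. The mitochondrially encoded mt-Nd5 rose by 0.71 among 11 genes. Of 20 endoplasmic reticulum stress genes Trib3 rose (1.135) and Sdf2l1 fell (-0.69). Of 20 clock genes Bhlhe40 rose, at 31.3 to 47.8 CPM in the controls and 66.3 to 106 CPM in the mutant-labelled libraries (1.11 ± 0.16, adjusted p = 0.00878), while its relative Bhlhe41 (-0.89) and Usp2 (-0.84) fell. The core clock gene Clock was at 0.11 (adjusted p = 0.31). Of 22 immediate early genes Junb fell by 0.37. Trib3 was not called without control 1, 2 or 3, nor mt-Nd5 without control 2 or 3. The falls in these lists numbered 0 without control 1, 2 or 3 or mutant-labelled library 1. Junb and Usp2 were also lost without control 4 or mutant-labelled library 3 or 4, Sdf2l1 without mutant-labelled library 3 or 4, Cycs without mutant-labelled library 2 or 3 and Bhlhe41 without mutant-labelled library 2. Without control 4 the endoplasmic reticulum list had 6. The share of mitochondrial counts was 1.74 to 1.94% in the controls and 1.89 to 2.15% in the mutant-labelled libraries.

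The same lists were then set beside the 8-day libraries (3 Rfx6f/f controls and 4 mutant-labelled), which share no sample with the 3-month ones. At 8 days 16 genes of 17493 were called. The median log2 fold change at 8 days was -0.07 for the GTPases, -0.03 for interferon-gamma signalling, 0.21 for T and cytotoxic lymphocytes, 2.42 for B cells, -0.11 for antigen presentation, 0.17 for fatty acid oxidation and -0.01 for fibroblasts and collagen. The B cell median was thus positive at 8 days and negative at 3 months, with 0 of 17 genes called at 8 days and a called difference between the times for 1. The difference between the 2 effects, tested in 1 fit of all 15 libraries, was called for 141 of 17959 genes, or 0.785%. They included Cd274 (3 months minus 8 days, -1.65 ± 0.21, adjusted p = 0.0053), Socs1 (-2.47), Irgm1 (-1.32) and Tgtp1 (-2.63). Among metabolic genes they were Slc2a2 (3.96 ± 0.61, adjusted p = 0.0179), Apoa4 (3.30), Nt5e (2.32), Mlxipl (1.01) and Por (0.95). For Sis (0.72, adjusted p = 0.261) and Fbp1 (adjusted p = 0.19), which were already called at 8 days with log2 fold changes of 1.74 and 1.90, the difference was not called. Without the Rfx6f/+ controls 5 genes had a called difference. Time and other differences between the 2 sets of libraries cannot be told apart.

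**Figure D5:**
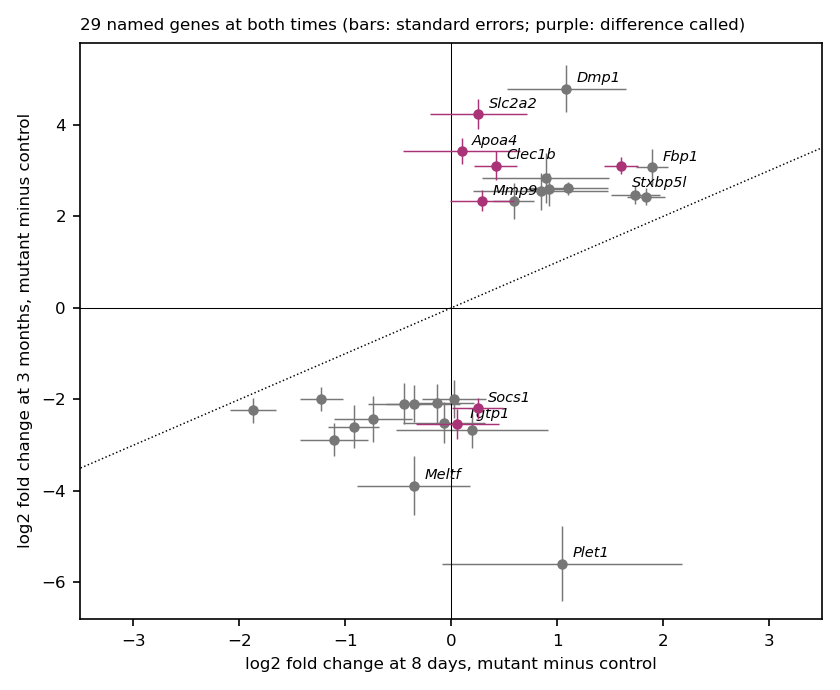
Log2 fold change at 3 months (y axis) against that at 8 days (x axis) of 29 named genes, with standard errors as bars, the dotted line marking equal effects and purple points a called difference. The genes were chosen by their size of change at 3 months, which places them far from 0 on that axis. Slc2a2, Apoa4, Socs1 and Tgtp1 sit near 0 at 8 days.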

How the data were processed

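RNA-seq of mouse ileum was deposited by the authors as raw read counts per Ensembl gene, 1 table for each time point. Per the submitters' processing notes, bcl2fastq 2.17.1.14, TopHat2 2.0.10, Bowtie 1.0.0, Bowtie2 2.1.0, HTSeq 0.6.1 and the mm9 build were used. The strand setting of the counting is not given in the sources used here. Per the labels' protocols, RNA was extracted by either of 2 methods, not assigned to samples, and prepared with ribosomal depletion, although the molecule label names polyA RNA. Sample groups follow the genotype and time labels. Library totals at 3 months were 26078462 to 36270306 counts. The floor of 3 counts covers counting error only, while standard errors come from the fit across samples.

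From the deposited counts, genes were filtered with edgeR's filterByExpr (minimum count 10), scaled by TMM and tested with the edgeR 4.0.16 quasi-likelihood test (legacy deviances, R 4.3.3) on the 8 libraries, with Benjamini-Hochberg adjustment over all 17085 tested genes and a threshold of 0.05. CPM values use the TMM-scaled library sizes. An interaction term in 1 fit of all 15 libraries tested whether the effect differed between time points. Rows without a gene symbol were kept in the fit and made up 0.609 to 0.794% of counts at 3 months. The fit was tested on simulated counts. No pair of replicates agreed within sampling noise: the chi-square per degree of freedom was 12.1 to 70.9.

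Named genes were the 15 called rises and the 15 called falls of largest size whose groups did not overlap and whose mean log2 CPM was 0 or more, without peptide hormones, predicted genes, pseudogenes and receptor or immunoglobulin segments, and up to 4 called members of each gene list by adjusted p. Some genes are not reported here. Genes given with values beyond this rule were chosen after their values were seen. The members and lists were chosen with earlier results of these data known. Promoters came from RefSeq, GRCm38.p6, which is not the build of the counts, so no gene coordinates are given for the count tables. Exon overlaps are from GENCODE M21. Alternatives were DESeq2 1.42.0, limma 3.58.1 (voom), newer edgeR deviances, robust empirical Bayes, 3 other scalings, 2 other filters, a fold threshold, each control genotype alone, a joint fit and each library left out. Figures were drawn with matplotlib 3.10.9.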

Additional observations from a re-analysis of the deposited data

Results flagged for a closer look

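Among 426 groups of 4 values (213 genes in 2 groups), 28 (6.57%) held a sample far from the other 3 by Dixon's criterion, where chance gives about 1 in 20. Of these, 8 were mutant-labelled library 2. Its values were 4.49 CPM for Socs1, 152 CPM for Ifit1bl1, 2.64 CPM for Cxcl10, 10.6 CPM for Cxcl9 and 32.9 CPM for Iigp1, each the highest of its group, and 79.7 CPM for Slc11a2, 128 CPM for Slc9a3 and 14.4 CPM for Usp2, also the highest. Mutant-labelled library 1 stood apart, on the high side, for Acadvl (228 CPM), mt-Nd5 (365 CPM), Trib3 (7.48 CPM) and Rfx6 (3.40 CPM), and on the low side for Top2a (282 CPM). Mutant-labelled library 3 was low for Apoc3 (54.5 CPM) and Khk (101.5 CPM) and high for Clec1b (2.80 CPM) and Csf1r (147 CPM). Among the controls, library 2 was low for Sis (1364 CPM), Creb3l3 (49.9 CPM) and Kit (28.35 CPM) and high for Cyp1b1 (14.7 CPM), Gbp9 (27.8 CPM) and Tgtp2 (14.2 CPM). Control library 4 was high for Mlxipl (58.6 CPM), Cpt2 (88.2 CPM) and Ano1 (27.1 CPM) and low for Col1a1 (76.4 CPM), and control library 1 was high for Slc2a2 (5.71 CPM).

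For 22 of the 213 genes the effect differed between 3 months and 8 days by the interaction term in edgeR. Given as the log2 effect at 3 months minus that at 8 days, immune genes differed by -2.78 for Pdcd1, -2.63 for Tgtp1, -2.47 for Socs1, -1.89 for Mzb1, -1.65 for Cd274, -1.61 for Ctla4 and -1.32 for Irgm1. Epithelial and metabolic genes differed by 3.96 for Slc2a2, 3.30 for Apoa4, 2.35 for Reg4, 2.32 for Nt5e, 1.01 for Mlxipl and 0.95 for Por. Stxbp5l differed by 1.48. Other genes of blood and stroma differed by 2.67 for Clec1b, 2.03 for Mmp9, 0.95 for Col6a3, 0.83 for Cxcl14, 0.81 for Col6a2 and 0.73 for Vwf. The transcription factors Bhlhe41 and Junb differed by -1.91 and -0.76. Time and other differences between the 2 sets of libraries cannot be told apart.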

How the results depend on the processing

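All 1586 genes called at 3 months kept their sign wherever they were tested, in each alternative fit run. The count moved with the test and the samples: DESeq2 gave 2983 (1471 higher, 1512 lower), a log2 fold threshold of 1 gave 341 (170 and 171), the Rfx6f/f controls alone 36 (23 and 13) and the Rfx6f/+ controls alone 416 (229 and 187). Scaling without the 20 most counted genes gave 487 lower and 64.7% higher calls, against 53.5% at first, and the joint fit 1123 lower. Leaving out single libraries gave 391 to 1521 calls, of which 250 to 777 were higher and 140 to 744 lower. The count was 400, 412 and 391 without control 1, 2 or 3, and 856 and 768 without mutant-labelled library 1 or 3. Without mutant-labelled libraries 2 and 3 together, chosen after seeing the data, it was 770 (400 higher, 370 lower). The other settings stayed within 1.5 times.

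The 141 differences between time points became 1017 with DESeq2 and 5 without Rfx6f/+ controls, and ranged from 10 to 749 when single libraries were left out. Over the 213 named genes, 947 gene and setting pairs lost a call, 44 gained one and 13 changed sign, none of them for a called gene. With Rfx6f/f controls Lgr5 was at -0.044 and Mki67 at 0.013, and with Rfx6f/+ controls Vil1 was at 0.0134. When single libraries were left out, Hnf4a ran from -0.057 to 0.0169, Ifngr1 from -0.059 to 0.054, the log2 fold change of Lgr5 from -0.00873 to 0.096, Mki67 from -0.067 to 0.0173 and Vil1 from -0.16 to 0.0198. Where the count moved, the cause was not tested.

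No paired analysis was possible because the labels pair no mutant-labelled sample with a control and the replicate numbers follow the order of deposit. Depth limits genes near 3 counts per library (0.080 to 0.117 CPM), such as Ifng and Dmp1.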

Other observations

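Enteric neuron and glia genes, which the report did not describe, gave 0 calls among 15 and 7 tested genes at 3 months, with medians of 0.21 and 0.25. Ano1, a chloride channel of the interstitial cells of Cajal, rose by 0.61 ± 0.16 on the log2 scale (adjusted p = 0.0454, edgeR), at 20.4, 20.1, 20.6 and 27.1 CPM in the controls and 25.9, 31.4, 42.7 and 34.4 CPM in the mutant-labelled libraries, with overlapping groups. It lost its call in 6 of the 8 sets of 7 libraries and with either control genotype alone (adjusted p = 0.289 and 0.0881). It was the only call of 5 genes of that cell type, and Kit, their receptor tyrosine kinase, was at 0.34 (adjusted p = 0.12). Mesothelial genes had 0 calls of 5, and 8 of 10 stomach genes lay below the filter on low counts.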
